A study of Saccharomyces cerevisiae with 3 samples.

Results

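Nuclear pore complex genes of Saccharomyces cerevisiae were taken as 33 gene names, matched in capitals to the symbols of the array's platform annotation. The match gave 32 probe sets, 1 for each of 32 genes, out of 10762 probe sets that are not controls of the array maker, 5498 of which name an S. cerevisiae gene. The remaining name, NUP59, had no probe set of its own; the reference table lists it as a synonym of ASM4, which was measured, so 32 of the 33 names cover all the genes on the list. All 32 symbols were the same as those the reference table gives for the same gene identifiers, and no gene of the 32 overlapped another gene in that table.

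The study measured RNA on 3 arrays, with 1 array per group. The first held 100% baseline material, the second 99% baseline with 1% spike and the third 90% baseline with 10% spike. In every group the baseline was total RNA of W303 yeast of mating type alpha that carried cdc15-2, a temperature-sensitive mutation in a protein kinase of mitotic exit, collected 340 minutes after release from the restrictive temperature, in minimal medium at 23 °C. What the spike was is not stated in the labels used here. By the labels the groups share the same baseline yeast and differ in the shares of baseline and spike. With 1 array per group no difference below has a replicate check, no test was run, and neither p-value nor error is given. Precision is limited by that number of arrays.

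The nuclear pore complex is a ring-shaped channel set in the nuclear envelope through which RNA and protein pass between nucleus and cytoplasm. Its scaffold is built of the Y complex, which coats the curved membrane, and of an inner ring. Proteins rich in phenylalanine-glycine (FG) repeats fill the channel and bind transport receptors, membrane proteins anchor the ring, a basket of filaments extends into the nucleus, and further proteins on the cytoplasmic side take part in the release of exported mRNA. Baker's yeast builds new pores into an intact nuclear envelope, since the envelope does not break down in its mitosis.

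The deposited values were taken as log2 values, which no label states, so a difference of 1 was read as a 2-fold ratio. Over the 5498 S. cerevisiae probe sets the median value was 10.81 without spike, 10.82 at 1% spike and 10.84 at 10% spike. Markers of the labelled mating type were set beside those of the other. The 5 alpha-specific markers were at 13.75 to 14.64 in the baseline array and the 7 a-specific ones at 8.85 to 10.99. None of the latter was thus at the bottom of the scale, and the highest, MFA1, was above the S. cerevisiae median. Because a value depends on the probes as well as on the RNA, these levels do not settle the mating type. CDC15 was at 10.29 in all 3 arrays. Over 8 yeast control genes with probe sets at both transcript ends, the median 3′ minus 5′ value was 0.57 without spike, 0.57 at 1% spike and 0.61 at 10% spike. Single control genes moved both ways between the baseline and the 10% array. EAF5 went from 1.011 to 1.186 and SRB4 from 2.685 to 2.825, whereas TDH1 went from 0.208 to 0.154 and RIP1 from 0.043 to -0.012. The 27 probe sets for hybridization controls (bioB, bioC, bioD and cre) were all higher in the 10% array than in the baseline array, by a median of 0.51, and their part in the differences below was not tested.

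The pore genes were measured well inside the range of the array, and no gene differed by more than 0.21 between arrays. Their median absolute difference as deposited was 0.0605 for 10% over baseline. It was 0.028 for all S. cerevisiae probe sets and 0.027 for those whose mean value lay within the range of the pore genes. For 1% over baseline all of these medians were 0. Values of the pore genes ran from 9.27 for NUP42 to 12.89 for POM33 in the baseline array, with a median of 11.09. The median was 11.11 in the 1% array and 11.17 in the 10% array, and the lowest and highest genes were the same. NUP42 was at percentile 55.8 of all non-control probe sets in the baseline array and POM33 at percentile 93.9. That set includes many probe sets that name no S. cerevisiae gene. Among the 5498 that do, the lower quartile was 9.788 and the median 10.814 in the baseline array. NUP42 was thus below the lower quartile of yeast probe sets. In the baseline array the Y complex genes ran from 10.34 to 11.87, the inner ring genes from 10.93 to 11.84, the FG-repeat genes from 9.27 to 11.90 and the basket genes from 10.52 to 11.88. The membrane genes ran from 10.62 to 12.89 and the cytoplasmic-side genes without FG repeats from 9.92 to 11.45. The groups' ranges overlapped in each array. A probe set's value depends on its probes as well as on the RNA, so these levels give no order of transcript abundance between genes.

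**Figure D1:**
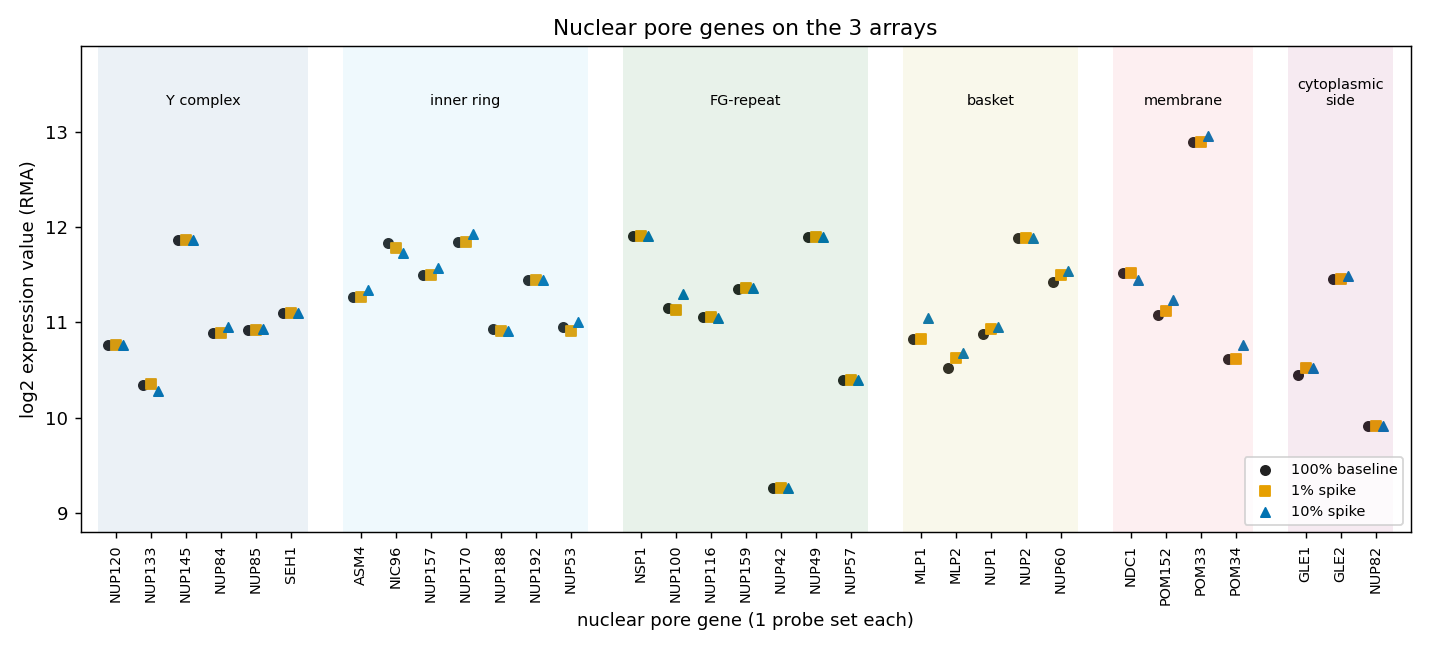
Log2 expression value (y axis) of the 32 nuclear pore genes (x axis, grouped by their place in the pore), with 1 point per array: circles for 100% baseline, squares for 1% spike and triangles for 10% spike. The 3 points of a gene lie almost on each other, and the largest gap within a gene is 0.21, for MLP1.

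No pore gene reached a 2-fold difference in either direction in any comparison. For 1% over baseline, 0 of 32 were at least 2-fold higher, where 0.065% of all non-control probe sets were, and 0 were at least 2-fold lower, where 0.0% were. For 10% over baseline, 0 of 32 were 2-fold higher against 0.112% of all non-control probe sets, and 0 were 2-fold lower against 0.0186%. For 10% over 1% the counts were again 0 and 0, against 0.065% and 0.0186%. At 1.5-fold the counts were also 0 in both directions, against 0.0929% higher and 0.0% lower for 1% over baseline, 0.279% and 0.13% for 10% over baseline, and 0.177% and 0.065% for 10% over 1%. Counts of 0 of 32 are near these background shares and are not a result about pore genes. The differences themselves ran from -0.053 to 0.10 for 1% over baseline and from -0.11 to 0.21 for 10% over baseline. The largest, at MLP1, was a ratio of 1.16. The values that follow describe differences of that size.

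In the 10% array more pore genes were higher than lower, as was the case for yeast probe sets in general. Values are relative to each normalized array, so a higher value need not mean more transcript. By the labels this array held 90% baseline, a share that is -0.152 in log2, and its part in the differences was not tested. Compared with the baseline array, 18 pore genes were higher, 5 were lower and 9 were equal to 3 decimals, with a median difference of 0.0135 and a mean of 0.041. Of the 5498 S. cerevisiae probe sets 45.1% were higher, 27.2% lower and 27.7% equal, with a median of 0. In the subset of 3951 whose mean value lay within the range of the pore genes, 49.4% were higher, 23.1% lower and 27.5% equal, also with a median of 0. For the pore genes these shares were 56.2% and 15.6%. The direction of the median depended on the scaling: it was -0.0065 (15 higher, 16 lower) after the arrays were quantile-normalized over again, -0.0125 (15 higher, 17 lower) when each array was centred on its S. cerevisiae median, and 0 (16 and 16) with the loess trend removed. Under those 3 settings the share of S. cerevisiae probe sets that were higher was 38.4%, 31.9% and 41.7%.

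At a lower threshold of 1.1-fold, 5 pore genes were higher in the 10% array and 0 lower. That is 15.6% of the 32, where 4.6% of S. cerevisiae probe sets were higher by as much and 5.73% lower. In the level range of the pore genes these shares were 5.37% and 2.46%. Of all non-control probe sets, the background used above for 2-fold and 1.5-fold, 8.07% were higher by as much and 5.94% lower. The 5 were MLP1, MLP2, POM152, POM34 and NUP100. The count was 1, MLP1, under quantile normalization over again and under centring, and 3, MLP1, MLP2 and POM152, with the loess trend removed. Under those settings 3.38%, 2.86% and 3.97% of S. cerevisiae probe sets were higher by as much. Of all non-control probe sets 6.76%, 6.18% and 7.64% were, so the count of 1 of 32 is near or below the background.

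The basket, the filamentous structure on the nuclear face, held the largest single difference. MLP1 (YKR095W, probe set 1778196_at) encodes a long coiled-coil protein of the basket that helps retain faulty mRNA in the nucleus. It was at 10.83 without spike, 10.83 at 1% spike and 11.04 at 10% spike, so its difference of 0.21 appeared only between the 1% and the 10% array. Of the S. cerevisiae probe sets, 1.07% had a difference at least as high for 10% over baseline. Its paralog MLP2 (YIL149C, 1780062_at), which also associates with the spindle pole body, was at 10.52, 10.63 and 10.67. Both spiked arrays were above the baseline array for MLP2, by 0.10 and 0.15, and the larger step lay between baseline and 1%. That step of 0.10 was the largest of any pore gene for 1% over baseline, and 0.673% of S. cerevisiae probe sets had one at least as high. MLP1 and MLP2 were picked as the largest of 32 in these data, so these shares do not show that either stands out. The same limit holds for the shares given below for NIC96 and GLE1.

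The basket also holds 3 proteins with FG repeats. NUP60 (YAR002W, 1769591_at), which anchors the basket filaments to the pore, was at 11.43 without spike, 11.49 at 1% spike and 11.54 at 10% spike, a difference of 0.11 between the outer arrays. NUP1 (YOR098C, 1772201_at), which binds the import receptor karyopherin, was at 10.88, 10.93 and 10.95. NUP2 (YLR335W, 1777353_at), a mobile nucleoporin that helps recycle the import adaptor, was at 11.88 in all 3 arrays. Of the 5 basket genes, 4 were thus higher at 10% and NUP2 was equal, and their median difference was 0.11. It was 0.082 after quantile normalization over again, 0.085 after centring and 0.097 with the loess trend removed, and in each of these the same count of 4 was higher. For 1% over baseline the basket median was 0.051, with 3 higher and 2 equal. As deposited, the whole set of S. cerevisiae probe sets had a median of 0 in both comparisons. Of that set 45.1% were higher for 10% over baseline and 22.6% for 1% over baseline. Under the 3 rescalings 38.4%, 31.9% and 41.7% of it were higher for 10% over baseline, with medians of -0.013, -0.026 and -0.006. The difference between the pore's parts was not tested.

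**Figure D2:**
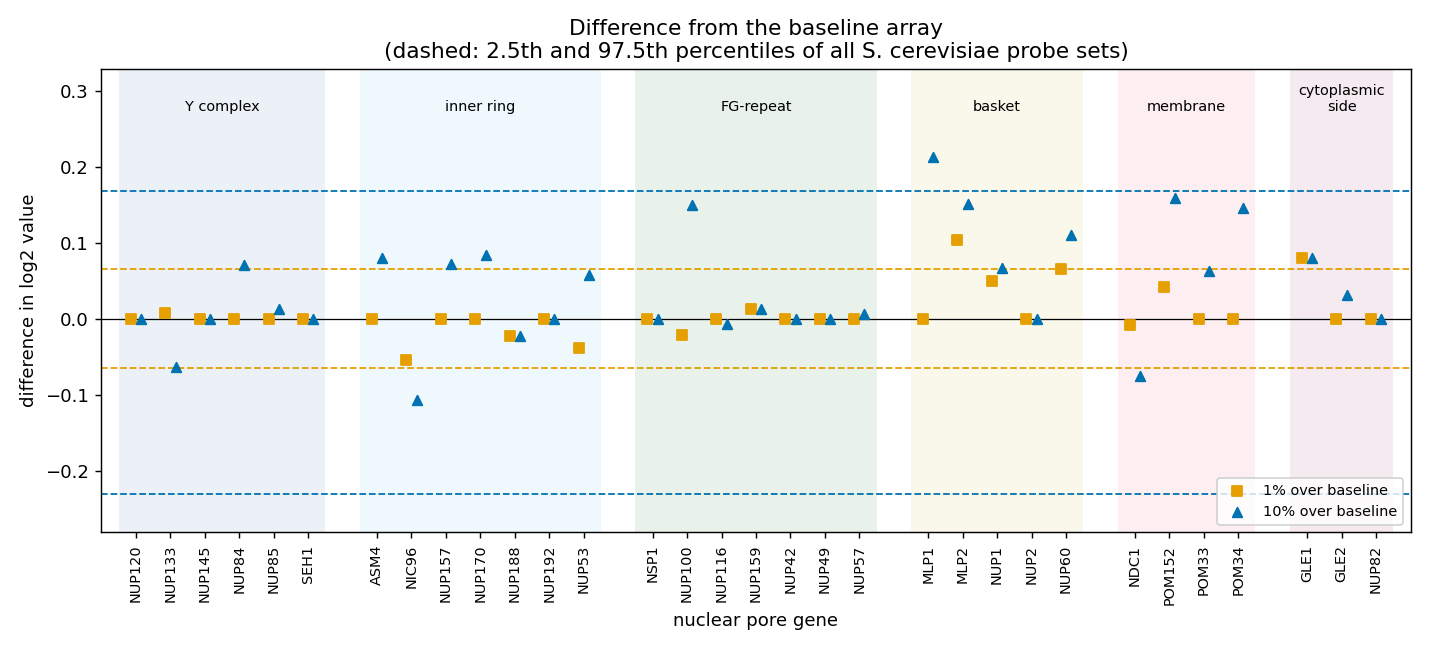
Difference in log2 value from the baseline array (y axis) for each nuclear pore gene (x axis), with squares for 1% over baseline and triangles for 10% over baseline. The dashed lines mark the range that holds the central 95% of all S. cerevisiae probe sets, -0.064 and 0.066 for 1% and -0.23 and 0.17 for 10%. MLP1 is above the 10% range, MLP2 and GLE1 are above the 1% range, NUP60 is at its upper limit, and the other genes lie inside.

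Among the membrane proteins, 3 of 4 were higher in the 10% array. POM152 (YMR129W, 1777700_at), a transmembrane protein that forms a ring in the lumen of the envelope, was at 11.08 without spike, 11.12 at 1% spike and 11.24 at 10% spike. Its difference of 0.16 for 10% over baseline was exceeded among the pore genes only by that of MLP1. POM34 (YLR018C, 1770628_at), a membrane partner of POM152, was at 10.62 without spike and with 1% spike, and at 10.76 with 10% spike, a difference of 0.15. POM33 (YLL023C, 1780187_at), which has a role in the distribution of pores and in their assembly, was at 12.89, 12.89 and 12.96, a difference of 0.063. NDC1 (YML031W, 1775829_at), which anchors the pore and also serves in the insertion of the spindle pole body, went the other way, at 11.52, 11.52 and 11.45, with a difference of -0.075. The median over the 4 was 0.105 for 10% over baseline and lay between 0.079 and 0.0915 under the other scalings, with 3 higher and 1 lower in each. Of S. cerevisiae probe sets 45.1% were higher as deposited and 31.9% to 41.7% under the other scalings.

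The 13 measured scaffold genes differed in both directions, from -0.11 to 0.085 for 10% over baseline. In the Y complex, 3 of 6 genes had equal values in the 3 arrays: NUP120 (YKL057C) at 10.77, SEH1 (YGL100W), a beta-propeller subunit that also belongs to a vacuole-associated complex, at 11.10, and NUP145 (YGL092W) at 11.87. NUP145 encodes a precursor that cleaves itself into an FG-repeat protein and a Y complex subunit. NUP84 (YDL116W) was at 10.88 without spike and with 1% spike, and at 10.95 with 10% spike. NUP85 (YJR042W) was at 10.92, 10.92 and 10.93, a difference of 0.014, which is close to the median of all pore genes. NUP133 (YKR082W), which has a motif that senses curved membrane, was at 10.34, 10.35 and 10.28, a difference of -0.063. The Y complex median was 0 for 10% over baseline, with 2 higher, 1 lower and 3 equal. It was -0.032 after quantile normalization over again and -0.026 after centring, with 5 of 6 lower in each. With the loess trend removed it was -0.0135, with 4 of 6 lower. Of the 5498 S. cerevisiae probe sets, 3314, 3712 and 3137 were lower under these settings, with medians of -0.013, -0.026 and -0.006. The 3 genes with equal values were among those moved below 0 in each setting.

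The inner ring held the gene with the lowest difference for both 1% and 10% over baseline. NIC96 (YFR002W, 1771675_at), which ties the central FG-repeat trimer to the scaffold, was at 11.83 without spike, 11.78 at 1% spike and 11.73 at 10% spike, differences of -0.053 and -0.11 from baseline. Of S. cerevisiae probe sets, 7.73% had a difference at least as low for 10% over baseline. The large inner ring protein NUP188 (YML103C) was at 10.93, 10.91 and 10.91, and its structural relative NUP192 (YJL039C) at 11.44 in all 3 arrays. NUP170 (YBL079W) was at 11.84, 11.84 and 11.92, and its paralog NUP157 (YER105C) at 11.50, 11.50 and 11.57. These paralogs had the same form, with equal values in the baseline and the 1% array and a higher value at 10%, by 0.085 and 0.073.

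The inner ring linkers NUP53 and ASM4 are another pair of paralogs. ASM4 (YDL088C), the gene also called NUP59, was at 11.26 without spike and with 1% spike, and at 11.34 with 10% spike. NUP53 (YMR153W), which is phosphorylated in mitosis, was at 10.95 without spike, 10.91 at 1% spike and 11.01 at 10% spike, so its 1% value was the lowest of the 3. The inner ring median was 0.058 for 10% over baseline, with 4 higher, 2 lower and NUP192 equal. Under the other scalings it was 0.028 to 0.045, with 4 higher and 3 lower. The share of S. cerevisiae probe sets that were higher was 45.1% as deposited and 31.9% to 41.7% under the other scalings.

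Of the 7 genes assigned to the FG-repeat group, which leaves out the FG-bearing proteins of the basket and the inner ring, all but NUP100 differed by 0.013 or less between the 10% and the baseline array. The central channel trimer consists of NSP1, NUP49 and NUP57. NSP1 (YJL041W) was at 11.90 and NUP49 (YGL172W) at 11.90 in all 3 arrays, and NUP57 (YGR119C) was at 10.39, 10.39 and 10.40. NUP42 (YDR192C), a cytoplasmic FG-repeat protein that binds GLE1 in mRNA export, was at 9.27 in all 3 arrays. NUP159 (YIL115C), which docks the mRNA export helicase DBP5, was at 11.35, 11.36 and 11.36.

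NUP100 and NUP116 are paralogs whose repeats carry glycine-leucine-phenylalanine-glycine. NUP100 (YKL068W, 1779538_at) was at 11.15 without spike, 11.13 at 1% spike and 11.30 at 10% spike, so the 1% value was the lowest and the difference was 0.15 for 10% over baseline and 0.17 for 10% over 1%. NUP116 (YMR047C, 1777395_at) was at 11.06, 11.06 and 11.05, with a difference of -0.006. The paralogs thus differed from each other by 0.156 in their 10% over baseline differences, against 0.062 for MLP1 and MLP2, 0.012 for NUP170 and NUP157 and 0.023 for ASM4 and NUP53. The FG-repeat group as a whole had a median of 0, with 3 higher, 1 lower and 3 equal. It was -0.026 to -0.004 under the other scalings, with 1 higher in each. Among S. cerevisiae probe sets 45.1% were higher as deposited and 31.9% to 41.7% under the other scalings, where their medians were -0.026 to -0.006.

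The 3 remaining genes encode proteins of mRNA export on the cytoplasmic side. GLE1 (YDL207W, 1774923_at), which stimulates the ATPase of DBP5, was at 10.44 in the baseline array and at 10.52 in both spiked arrays. As deposited, its difference from baseline was 0.081 at both 1% and 10% spike. After centring these differences were 0.075 and 0.055. For 1% over baseline, 1.55% of S. cerevisiae probe sets had a difference at least as high. GLE2 (YER107C), which binds NUP116, was at 11.45, 11.45 and 11.49. NUP82 (YJL061W), the scaffold of the cytoplasmic export platform, was at 9.92 in all 3 arrays.

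**Figure D3:**
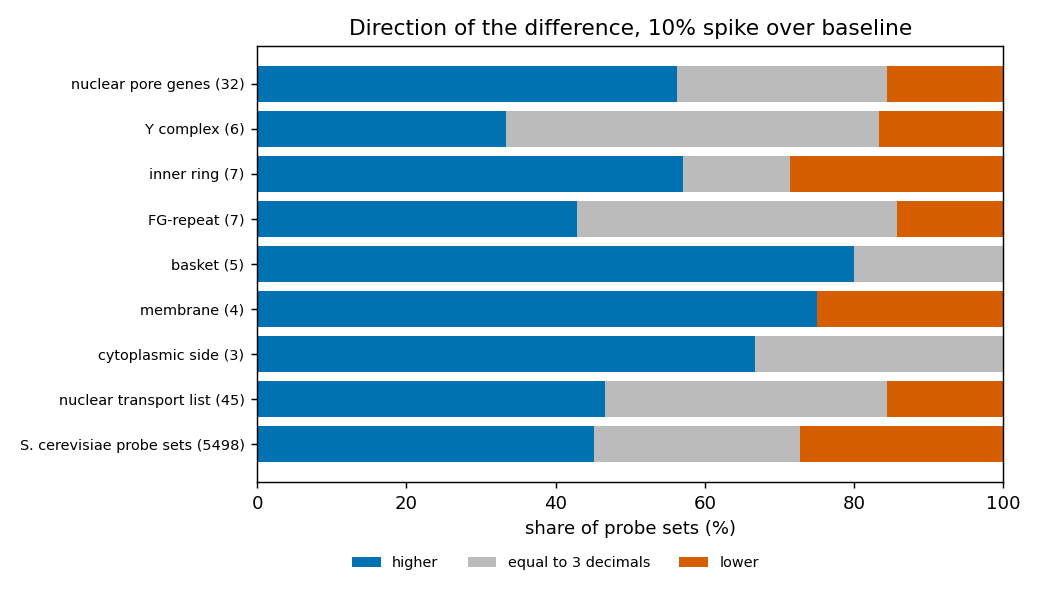
Share of probe sets (x axis, percent) that were higher, equal to 3 decimals or lower in the 10% array than in the baseline array, for the nuclear pore genes, the parts of the pore, a list of nuclear transport genes and all S. cerevisiae probe sets (y axis, number of probe sets in brackets). Of the pore genes 56.2% were higher and 15.6% lower, against 45.1% and 27.2% of all S. cerevisiae probe sets.

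The order of the 3 arrays within a gene was then examined. Of the 32 pore genes, 9 had equal values in all 3 arrays (28.1%), against 25.9% of S. cerevisiae probe sets. They were NSP1, NUP2, NUP42, NUP49, NUP82, NUP120, NUP145, NUP192 and SEH1. Another 10 (31.2%) had equal values in the baseline and the 1% array and a different one at 10%, against 36.9%. For 3 genes, GLE1, NUP159 and NUP188, the 2 spiked arrays were equal and the baseline array differed, which is 9.38% against 8.68%. In 0 genes were the baseline and the 10% array equal with a different 1% value, against 1.76%. The last 10 differed in all 3 arrays (31.2% against 26.7%). In 7 of these 10 the 1% value lay strictly between the others, namely MLP2, NUP1, NUP60, POM152, POM33, NIC96 and NDC1. That is 21.9% of the pore genes and 22.0% of S. cerevisiae probe sets. In NUP53 and NUP100 the 1% value was the lowest of the 3, and in NUP133 it was the highest. The pore genes' pattern of ties was thus close to that of yeast genes in general.

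For 1% over baseline, 8 pore genes were higher, 5 lower (15.6%) and 19 equal (59.4%), with a median of 0. Of all S. cerevisiae probe sets 22.6% were higher, 14.5% lower and 62.9% equal, also with a median of 0. Under quantile normalization over again the pore genes split into 6 higher and 26 lower, and under centring into 7 and 25, as most ties moved just below 0. The S. cerevisiae probe sets moved likewise: of the 5498, 1245 were higher and 4094 lower under the first setting, and 1052 and 4417 under the second. The largest differences were 0.10 at MLP2, 0.081 at GLE1, 0.066 at NUP60, -0.053 at NIC96, 0.051 at NUP1, 0.042 at POM152, -0.038 at NUP53 and -0.022 at NUP188. At 1.1-fold, 0 of the 32 were higher or lower, where 0.309% of S. cerevisiae probe sets were higher and 0.691% lower. Of all non-control probe sets 2.32% were higher and 2.03% lower by as much. For 10% over 1%, 16 were higher, 4 lower and 12 equal, with a median of 0.0035, where 41.2%, 24.2% and 34.6% of S. cerevisiae probe sets were. Under quantile normalization over again 14 were higher and 18 lower, under centring 13 and 19, and with the loess trend removed 16 and 16. Those settings gave 39.5%, 30.7% and 38.0% of S. cerevisiae probe sets higher for 10% over 1%. MLP1 at 0.21, NUP100 at 0.17 and POM34 at 0.15 were past 1.1-fold, which 3.02% of S. cerevisiae probe sets were. By as much 0 pore genes were lower, against 4.6%. Of all non-control probe sets 6.57% were higher and 4.93% lower by as much. The lowest pore gene was NUP133 at -0.071. The 3 comparisons share arrays, so their values are set side by side and are not independent of each other.

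Other genes of nuclear transport, which are not part of the list of pore genes, gave a wider view of the pathway. The list held 45 genes, all measured, among them karyopherins, the Ran cycle, mRNA export factors and proteins of pore assembly. None was past 2-fold in either direction for 10% over baseline. Of the 45, 21 were higher (46.7%), 7 lower (15.6%) and 17 equal (37.8%), beside 45.1%, 27.2% and 27.7% of S. cerevisiae probe sets. The median was 0, and the differences ran from -0.093 to 0.18. The median was -0.026 to -0.012 under the other scalings, with 9 to 15 of the 45 higher (20.0% to 33.3%). Under the same scalings 31.9% to 41.7% of S. cerevisiae probe sets were higher, with medians of -0.026 to -0.006. SEC13, whose product is a Y complex subunit and also a part of the coat of vesicles that leave the endoplasmic reticulum, had the highest difference. It was at 12.87 without spike, 12.93 at 1% spike and 13.05 at 10% spike, and at 0.18 it alone of the list was past 1.1-fold. That is 2.22% of the list, beside 4.6% of S. cerevisiae probe sets and 8.07% of all non-control probe sets. SEC13 was also higher by more than any of the 6 Y complex genes on the pore list, of which the highest was NUP84 at 0.071.

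PER33, the paralog of POM33, was at 11.40, 11.45 and 11.54, a difference of 0.13 beside 0.063 for POM33. KAP114, an import receptor, was at 10.12, 10.12 and 10.25, also a difference of 0.13. The lowest were KAP123, an import receptor of ribosomal proteins, at -0.093, THP1, an mRNA export factor, at -0.071 and MSN5, an exporter of phosphorylated proteins, at -0.039. The Ran genes were at 13.96 in all 3 arrays for GSP1 and at 12.29, 12.29 and 12.27 for GSP2.

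The array also has probe sets whose symbols match a pore gene's name in lower case, and these were kept apart because the match was made in capitals. There were 9 of them, and which organism they target is not given in the sources. Their values ran from 4.08 to 5.53 in the baseline array, 4.39 to 5.45 in the 1% array and 4.15 to 5.53 in the 10% array. All 1747 probe sets with lower-case symbols had a median of 4.86 in the baseline array. The 9 were nup60, nup82, nup85, nup120, nsp1, gle1, pom34, pom152 and seh1. For 10% over baseline 4 of them were equal, gle1 differed by -0.29 and pom152 by 0.14, and the median was 0. The probe set nsp1 was at 4.08 without spike, 4.67 at 1% spike and 4.15 at 10% spike, so its 1% value was above its other values, whereas NSP1 was equal in all 3. All 3 values of nsp1 were below the medians of the lower-case probe sets, 4.86 to 4.89, and below the lower quartiles of the arrays, 4.916 to 4.945. Of all lower-case probe sets, the central 95% lay between -0.19 and 0.18 for 1% over baseline, and nsp1 at 0.59 was outside that range.

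**Figure D4:**
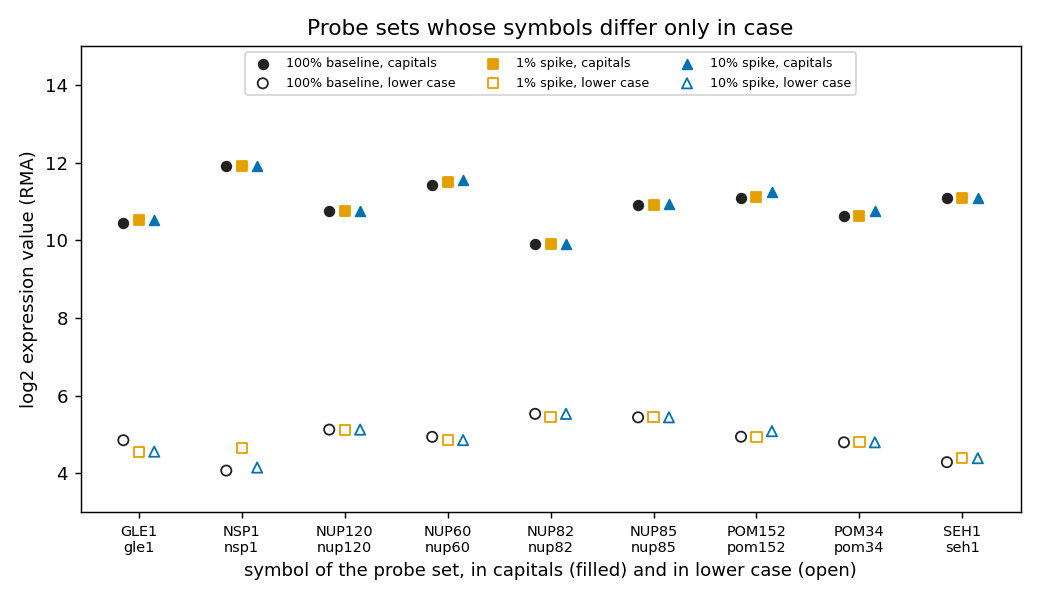
Log2 expression value (y axis) on the 3 arrays of the 9 nuclear pore genes (filled points) whose symbol another probe set carries in lower case (open points), by symbol (x axis). The lower-case probe sets lie between 4.08 and 5.53 and the pore genes of the same names above 9, and among the open points the 1% value of nsp1 stands above its other values.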

How the data were processed

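RNA of 3 samples, 1 per group, was measured on expression arrays. The authors' deposited values are log2 values for each probe set on each array, made with RMA per the submitters' processing notes. RMA's version and which arrays it joined are not stated there. No label names the scale; it was taken as log2 because RMA returns that and because values lay between 3.465 and 15.13. RMA gives arrays nearly the same distribution, which hides a shift common to most RNA, and its summary step can return equal values. The array names no build, so no coordinates are given.

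Values were used as deposited. Of 10928 probe sets, 166 with an AFFX identifier were controls. Symbols came from the platform annotation: 7244 probe sets carried 1 symbol, 1 carried several and 3683 none. Through gene identifiers 5498 matched the S. cerevisiae R64 table. Differences were rounded to 3 decimals. Thresholds were 2-fold, 1.5-fold and 1.1-fold. Named genes are all pore genes, with the 8 largest differences per comparison and the 2 nearest the median, 4 pairs of paralogs, the 3 highest and 3 lowest genes of the transport list and SEC13. The pore genes and all lists were chosen with earlier results of these data known. Alternatives were quantile normalization over again, centring, a loess trend (span 0.3, statsmodels 0.14.6), filters on level and probe set type, other thresholds, means and other group assignments. The steps were tested on simulated data whose changes were 1.5-fold or more. That test does not cover differences as small as those of the pore genes. Python 3.11.15 was used.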

Additional observations from a re-analysis of the deposited data

How the results depend on the processing

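No paired analysis was possible because each group is 1 array, and for the same reason no replicate could be left out. With no replicates, the only yardstick was 1 SD of the differences of single S. cerevisiae probe sets in the level range of the pore genes (0.024 for 1% over baseline, 0.074 for 10% over baseline and 0.064 for 10% over 1%). It is wide beside these medians, and the rescalings shifted pore genes only by between -0.041 and 0.005, so staying within it says nothing about stability: the median of all pore genes went from 0.0135 to -0.0125 within it. The values that moved further were counts at 1.1-fold in place of 2-fold, which follow from the lower threshold: 5 pore genes higher for 10% over baseline and 3 higher for 10% over 1%. At 1.5-fold all counts were 0. Small differences of single genes changed sign: NUP57, NUP85 and NUP159 for 10% over baseline after quantile normalization over again and after centring, and NUP57 and NUP159 with the loess trend removed. For 1% over baseline POM33 changed sign under the first 2 of these and NUP133 under the first, and for 10% over 1% NUP1, NUP57 and NUP85 did so under both. With NUP1, NUP2 and NUP60 counted among FG-repeat genes, the basket held MLP1 and MLP2 and its median was 0.18. With NUP53 and ASM4 moved as well, the inner ring median was 0 in place of 0.058, and the enlarged FG-repeat group had 0.01. Moving NUP145 to the FG-repeat group left the medians of the Y complex and the FG-repeat group at 0 and gave the scaffold 0.007 in place of 0. Every pore probe set was of the plain type and far above 4.917, the lower quartile of mean values over all non-control probe sets. Those filters thus removed none of the 32 and could not change a result. The limits are the single array per group and an undocumented log2 scale.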

Other observations

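Gene length was set beside the differences of the pore genes as a description. The reference table's lengths ran from 840 bases for POM33 to 5628 for MLP1, and 21 of the 32 pore genes were longer than 1892 bases, the upper quartile of the lengths of all S. cerevisiae probe sets' genes. For 10% over baseline, 10 of these 21 were higher and 5 lower, with a median of 0, where 45.2% of S. cerevisiae probe sets above that length were higher. Of the 11 shorter pore genes 8 were higher and 0 lower as deposited, where 45.1% of the shorter S. cerevisiae probe sets were higher and 27.3% lower. The count of 0 lower depended on the scaling. After centring SEH1, NUP42 and NUP49, which had equal values as deposited, were at -0.026, and NUP57 was at -0.019. Across the 32 genes, which share 3 arrays and are not replicates, Spearman's rho between length and difference was 0.055.

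In the gene order of the reference table NSP1 and NUP192 are next to each other with 0 protein-coding genes between them. Both had equal values in all 3 arrays, as had 9 of the 32 pore genes and 25.9% of S. cerevisiae probe sets. This pair is thus no result about neighbours. NUP157 and GLE2 have 1 gene between them, and they differed by 0.073 and 0.032 for 10% over baseline.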
